A study of Mus musculus with 127 samples.

Results

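The 9 genes described here encode proteins of the mouse red cell surface and of its anion, water, gas and carbon dioxide transport: Slc4a1, Rhag, Rhd, Cd47, Gypc, Kel, Ermap, Aqp1 and Car2. They were taken by name from 24320 gene symbols in the deposited table of single-cell RPKM values (read counts divided by transcript length and by the reads of the cell), not by a cut on their values. The list was drawn up with earlier results of these data known. Each of the 9 symbols had 1 row, and all 9 were among the 2540 genes kept for comparison, which averaged at least 1 on the log2(RPKM + 1) scale over the 127 cells. The cells came from marrow of C57BL/6J mice and are labelled as erythroblasts. In 48 cells the genotype was Flvcr deleted, where Flvcr is a surface transporter known for heme export. A further 31 cells came from wild-type mice treated with EPO (erythropoietin, the hormone that drives red cell production), and 48 cells from wild-type mice. How and in which cells Flvcr was deleted, the dose and time of EPO, and the age, sex and number of the mice are details not stated in the sources used here. Cells were captured in a microfluidic device, imaged for the red cell surface marker Ter119 and sequenced after whole-transcriptome amplification. Every cell has a class label with a letter, A to D. In the Flvcr-deleted and wild-type groups the normalized Ter119 signal rises with the letter without overlap. In the EPO-treated group the signals of the letters overlap, and the 4 cells of the smaller of its name prefixes lie near 0 whatever their letter. The labels name no animal, so each group counts as 1 sample: cells are not replicates, no test between groups was made, and spreads are over cells.

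Red cells carry the anion exchanger band 3 (Slc4a1) in large complexes with the Rh proteins, glycophorins, CD47 and blood group proteins, which adaptors tie to the spectrin skeleton. Band 3 exchanges bicarbonate for chloride, and the bicarbonate is made inside the cell by carbonic anhydrases such as CAR2. Most of these genes are switched on as erythroblasts mature, and several are known targets of the erythroid transcription factor GATA1, while Cd47 is made by nearly all cell types.

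The bases before the start sites of Rhag, Rhd, Kel, Ermap, Aqp1 and Cd47 are shown so that the letters bound by GATA factors can be read. RefSeq promoter windows of the GRCm38.p6 build were found for 6 of the 9 members, and all 6 are printed. The 250 bases before the start are printed 5′ to 3′ on the strand of the gene, and capitals mark the letters AGATAA or AGATAG and also TGATAA or TGATAG, on either strand. In the Aqp1 window, which holds none of these, capitals mark the letters CCNCNCCC on either strand.
Rhag promoter, chr17:40810899-40811148, plus strand: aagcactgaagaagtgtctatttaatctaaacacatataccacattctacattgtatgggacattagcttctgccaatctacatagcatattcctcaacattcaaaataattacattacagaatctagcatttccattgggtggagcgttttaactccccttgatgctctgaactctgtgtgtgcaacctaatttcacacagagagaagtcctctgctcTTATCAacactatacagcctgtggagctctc
Rhd promoter, chr4:134864286-134864535, plus strand: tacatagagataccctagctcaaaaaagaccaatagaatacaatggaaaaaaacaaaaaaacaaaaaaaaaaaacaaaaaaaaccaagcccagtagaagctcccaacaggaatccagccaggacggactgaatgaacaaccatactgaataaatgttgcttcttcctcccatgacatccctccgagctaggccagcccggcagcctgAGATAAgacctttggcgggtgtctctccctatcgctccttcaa
Kel promoter, chr6:41704326-41704575, minus strand: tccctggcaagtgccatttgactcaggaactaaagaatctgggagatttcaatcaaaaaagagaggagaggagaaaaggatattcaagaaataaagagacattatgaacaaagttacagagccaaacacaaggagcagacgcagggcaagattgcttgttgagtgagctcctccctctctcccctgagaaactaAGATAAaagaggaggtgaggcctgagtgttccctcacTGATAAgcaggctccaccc
Ermap promoter, chr4:119189996-119190245, minus strand: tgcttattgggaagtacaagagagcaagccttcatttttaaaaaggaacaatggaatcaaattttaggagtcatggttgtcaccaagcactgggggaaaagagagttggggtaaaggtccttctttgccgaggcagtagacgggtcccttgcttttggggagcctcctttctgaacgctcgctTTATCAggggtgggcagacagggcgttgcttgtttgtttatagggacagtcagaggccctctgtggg
Aqp1 promoter, chr6:55336049-55336298, plus strand: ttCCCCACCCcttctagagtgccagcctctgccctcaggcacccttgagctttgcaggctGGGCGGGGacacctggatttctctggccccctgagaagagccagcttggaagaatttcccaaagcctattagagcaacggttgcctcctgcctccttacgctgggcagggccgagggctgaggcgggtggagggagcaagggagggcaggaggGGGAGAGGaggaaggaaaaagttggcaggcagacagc
Cd47 promoter, chr16:49855404-49855653, plus strand: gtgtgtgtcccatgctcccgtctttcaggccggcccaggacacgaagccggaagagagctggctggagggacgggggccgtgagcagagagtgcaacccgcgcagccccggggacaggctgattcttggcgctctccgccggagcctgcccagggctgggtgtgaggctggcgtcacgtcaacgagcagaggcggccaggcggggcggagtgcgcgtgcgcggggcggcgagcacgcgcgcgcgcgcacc
Kel held the letters at 2 places, whose 5′ ends lay 56 and 19 bases before the start. Rhag, Rhd and Ermap held them at 1 place each, at 31, 43 and 67 bases before the start. Neither Cd47 nor Aqp1 held them in this window. Slc4a1, Gypc and Car2 had no window, and whether the letters go with the differences between groups was not tested. Of 32851 such mouse windows, 26.5% held these letters at least once. The letters CCNCNCCC, on either strand, of the kind bound by KLF factors, were found in the Aqp1 window alone among the 6, at 3 places, and in 45.9% of all windows. A check of the windows against transcript sequence failed for Aqp1 alone, so the place of its start is uncertain. A match is a description of the letters and not a bound site.

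Flvcr1 itself, listed under its older symbol Mfsd7b, was at 0 in all 48 Flvcr-deleted cells and all 31 EPO-treated cells and was detected in 1 of 48 wild-type cells, so its transcript does not check the labels. A gene counted as detected where its RPKM reached 1. The comparisons below use classes B, C and D, with 16, 9 and 5 Flvcr-deleted cells, 11, 9 and 4 EPO-treated cells and 10, 19 and 13 wild-type cells. Over these classes the median cell had 1196.5 detected genes in the Flvcr-deleted, 1385 in the EPO-treated and 2199 in the wild-type group, and globins took a median of 90.7%, 64.8% and 69.6% of the summed RPKM. In all 96 of these cells at least 3 of 10 erythroid markers were detected, and none had 3 of the 12 granulocyte and monocyte markers. The 6 B cell markers were at 0 throughout these cells. The 6 megakaryocyte and platelet markers summed to a median of 0 RPKM in the Flvcr-deleted (highest cell 20.6), 0 in the EPO-treated (191) and 19.7 in the wild-type cells (679), and 3 of the 6 were at 0 in all wild-type cells. Their part in the differences below was not tested. From the smallest steps of the values, the median cell held about 3560000 reads in the Flvcr-deleted and 4080000 in the wild-type group. An RPKM of 1 then stands for between 5.39 (Rhd) and 18.7 reads (Cd47) in a Flvcr-deleted cell and between 6.18 and 21.4 reads in a wild-type cell. The depth of the EPO-treated cells is unknown, since those values were deposited with at most 2 decimals. Each group has its own prefix in the cell names (2 prefixes in the EPO-treated group), so group and any batch that follows the prefix cannot be told apart.

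In wild-type cells of classes B to D the 9 transcripts spanned a wide range of levels, which RPKM gives per length. Car2 had the highest level, with a median of 6532 RPKM, followed by Rhd (961 RPKM) and Rhag (423 RPKM). Cd47, Kel, Ermap and Slc4a1 came next at medians of 230, 161, 117 and 85.7 RPKM, and Gypc (12.5 RPKM) and Aqp1 (4.94 RPKM) were the lowest. Only Car2 stood clear of its neighbour in this order: its lowest wild-type cell had 3902 RPKM and the highest wild-type cell of Rhd had 2529 RPKM, while the other neighbours overlapped over cells. By mean log2 level among the 2540 kept genes Car2 took place 9 in Flvcr-deleted, 7 in EPO-treated and 7 in wild-type cells. Rhd took place 72 in Flvcr-deleted, 53 in EPO-treated and 24 in wild-type cells. Gypc took place 2306 in Flvcr-deleted, 2171 in EPO-treated and 861 in wild-type cells.

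**Figure D1:**
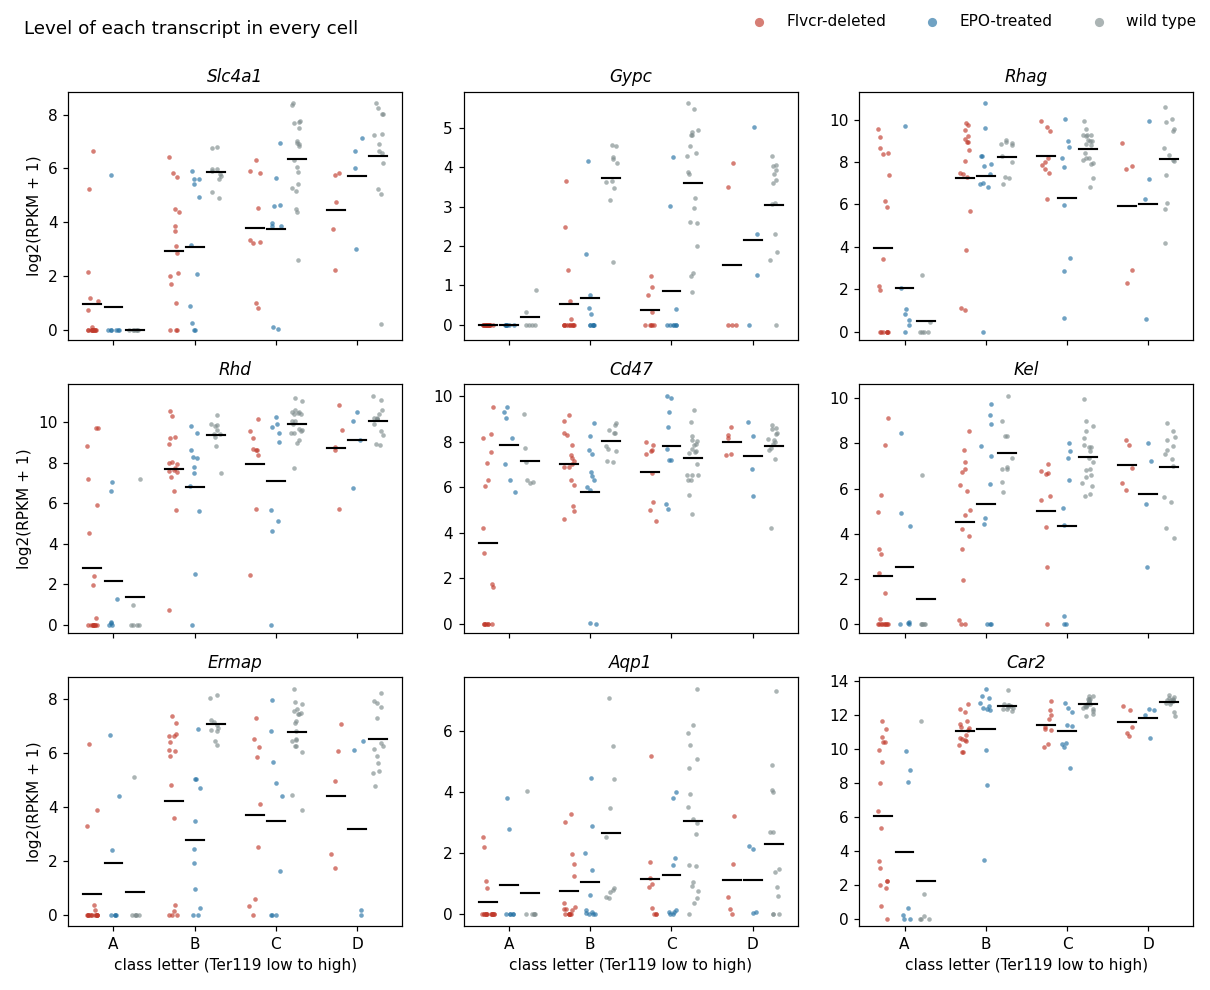
Level of each of the 9 transcripts in every cell, as log2(RPKM + 1) on the vertical axis, by class letter on the horizontal axis; points are cells of the Flvcr-deleted (red), EPO-treated (blue) and wild-type (grey) groups, and black bars are means over cells. In classes B to D the red and blue bars lie below the grey ones for Slc4a1, Gypc, Rhd, Ermap and Car2, while for Cd47 they do so only in part, and class A is low in most panels.

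Flvcr-deleted and wild-type cells were compared within Ter119 classes, which asks how the surface transcripts stand where a heme exporter is lost. In classes B to D, 7 of the 9 transcripts were lower in Flvcr-deleted cells and 0 were higher. Lower or higher here means a difference of mean log2(RPKM + 1), averaged over the 3 classes with equal weight, of at least 1 in size and of one sign in all 3 classes. Among the 2540 kept genes 48.3% were lower and 3.74% were higher by the same rule, so a large share of the kept genes was lower as well. Without the filter 6.32% of all 24320 symbols were lower and 0.424% were higher. The filter used all cells, and Gypc passed it through the wild-type group. Its mean log2 level over classes A to D was 0.40 in Flvcr-deleted, 0.76 in EPO-treated and 3.04 in wild-type cells. Its lower calls were thus not independent of the filter. The median difference was -1.68 over the 9 members and -1.08 over all kept genes. Ermap, Gypc and Slc4a1 lay farthest down, at -2.67, -2.65 and -2.50, and Cd47 lay nearest to 0.

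Slc4a1, the band 3 exchanger, ran over 0, 10.3 and 85.3 RPKM (lowest, median and highest cell) in 30 Flvcr-deleted cells, against 0.155, 85.7 and 345 RPKM in 42 wild-type cells. None of the 30 Flvcr-deleted cells was above the wild-type median, although the ranges overlapped. In class B its log2 level averaged 2.94 ± 2.11 (SD over 16 cells) in the Flvcr-deleted group, against 5.85 ± 0.60 (SD over 10 cells) in the wild type, a difference of -2.91. In class D the 5 Flvcr-deleted cells had 25.9, 12.4, 55.3, 53.0 and 3.68 RPKM, against 0.155, 121 and 345 RPKM (lowest, median and highest) in the 13 wild-type cells. All 5 lay below the wild-type median of that class, and the mean log2 difference there was -2.01.

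Rhag, the Rh-associated glycoprotein that forms the gas channel of the Rh complex, was detected in all 30 Flvcr-deleted and all 42 wild-type cells of these classes. It ran over 1.04, 244 and 965 RPKM in Flvcr-deleted cells, against 17.3, 423 and 1533 RPKM in wild-type cells. The averaged difference was -1.20, uneven over the classes, with -0.36 in C and -2.24 in D and a value between them in B. The class D value rested on few cells: the 5 Flvcr-deleted cells had 472, 6.60, 227, 201 and 4.00 RPKM, and without the cell at 6.60 or the cell at 4.00 the averaged difference was -0.95 or -0.90, so that Rhag was no longer called lower.

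Rhd, which encodes the Rh polypeptide that pairs with RHAG, ran over 0.687, 362 and 1847 RPKM in Flvcr-deleted cells, against 181, 961 and 2529 RPKM in wild-type cells. The averaged difference was -1.68, and it was similar in B (-1.70), C (-1.99) and D (-1.35). Of the 30 Flvcr-deleted cells, 7 were below the lowest wild-type cell and 4 were above the wild-type median.

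Cd47, the surface ligand that restrains uptake by macrophages and a member of the Rh complex, differed by -0.48 and was called neither lower nor higher. It ran over 21.9, 171 and 575 RPKM in Flvcr-deleted cells, against 17.7, 230 and 673 RPKM in wild-type cells. With the classes pooled, no Flvcr-deleted cell was below the lowest wild-type cell, which was of class D. Within classes, 8 of 16 Flvcr-deleted cells in B, 1 of 9 in C and 0 of 5 in D were. The difference was -0.99 in class B, -0.62 in C and 0.19 in D, the last on the other side of 0. The Cd47 gene overlaps another RNA gene, Gm4633, in the RefSeq gene annotation, and the libraries do not keep the strand.

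Gypc, glycophorin C, which ties the membrane to the skeleton, differed by detection as much as by level. Detection reached 6 of 30 Flvcr-deleted cells (20%, with an exact Clopper-Pearson 95% interval of 7.71% to 38.6%), against 40 of 42 in the wild type (95.2%, 83.8% to 99.4%). These intervals cover counting error only. It was at 0 in 19 of the 30 Flvcr-deleted cells and in 1 of the 42 wild-type cells. The highest cell had 16.3 RPKM in the Flvcr-deleted and 48.9 RPKM in the wild-type group, so the ranges overlapped. Where it was detected, its mean log2 level was 2.73 ± 1.22 over the 6 Flvcr-deleted cells, against 3.60 ± 1.12 over the 40 of the wild type.

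Kel, the Kell blood group protein with a protease domain, had the largest spread between classes. It was lower in classes B and C, by -3.05 and -2.40, but in class D the difference was 0.08. The averaged difference of -1.79 was therefore not called. The 5 class D Flvcr-deleted cells had 244, 283, 120, 74.3 and 60.1 RPKM, against 13.2, 184 and 475 RPKM (lowest, median and highest) in 13 wild-type cells, with the Flvcr-deleted values inside the wild-type range. The call turned to lower when the Flvcr-deleted cell at 244 or at 283, or any one of 4 wild-type class D cells, was left out.

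Ermap, a butyrophilin-like protein of erythroid membranes that carries the Scianna blood group, ran over 0, 43.1 and 165 RPKM in Flvcr-deleted cells, against 13.7, 117 and 330 RPKM in wild-type cells. Detection reached 22 of 30 Flvcr-deleted cells (73.3%, 54.1% to 87.7%), against all 42 of the wild type (100%, 91.6% to 100%). Of the Flvcr-deleted cells, 12 lay below the lowest wild-type cell, and where it was detected its level was 5.53 ± 1.68 (n = 22), against 6.77 ± 1.04 in wild-type cells (n = 42).

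Aqp1, the water channel, was sparse in every group. It reached detection in 10 of 30 Flvcr-deleted cells (33.3%, 17.3% to 52.8%), against 27 of 42 in the wild type (64.3%, 48.0% to 78.4%). The averaged difference was -1.67, and the intervals of the shares overlapped.

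Car2, carbonic anhydrase II, was detected in every cell of these classes. It ran over 894, 2345 and 7271 RPKM in Flvcr-deleted cells, against 3902, 6532 and 11283 RPKM in wild-type cells. Car2 was also the least variable member among wild-type cells, with an SD of 0.34 on the log2 scale, against 0.85 among Flvcr-deleted cells. Although its difference of -1.30 was among the smaller ones, 22 of the 30 Flvcr-deleted cells lay below the lowest wild-type cell.

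**Figure D2:**
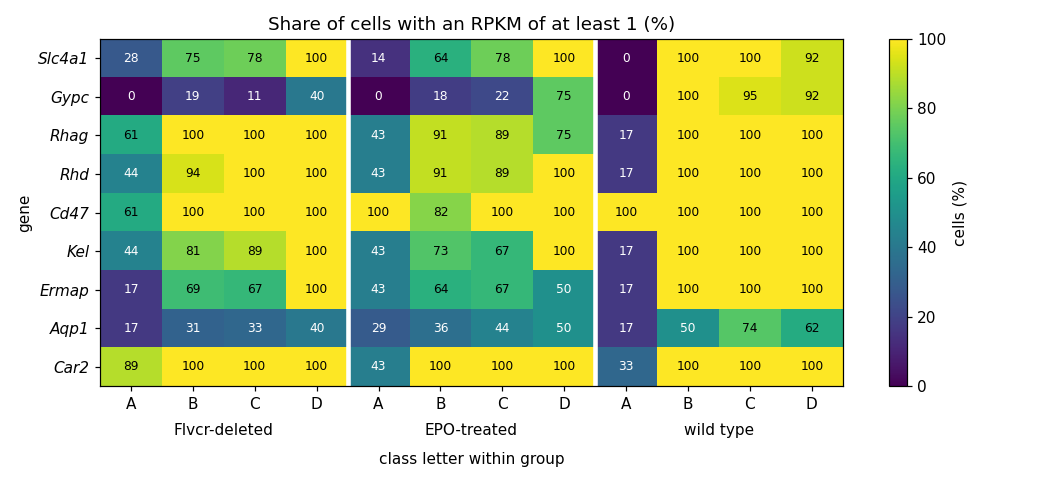
Share of cells in which each of the 9 genes (rows) was detected at an RPKM of at least 1, in percent, by group and class letter (columns); colour and number give the share. Gypc stands at 19%, 11% and 40% in Flvcr-deleted and 18%, 22% and 75% in EPO-treated cells of classes B, C and D, against 92% to 100% in wild-type cells.

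EPO-treated cells were set against the same wild-type cells, so the comparisons share their wild-type values. Cells were paired by class letter, and the letters do not stand for like normalized Ter119 values in these groups. The median normalized Ter119 was 0.0988 in class B, 0.281 in C and 0.556 in D of the EPO-treated group, against 0.452, 0.643 and 0.823 in the wild type. In the Flvcr-deleted group it was 0.381, 0.608 and 0.849. By letter 8 of the 9 transcripts were lower in EPO-treated cells and 0 were higher, where 42% of the kept genes were lower and 0.512% were higher. Without the filter 5.31% of all 24320 symbols were lower. The median difference was -2.05 over the members and -0.99 over all kept genes. Ermap differed the most, by -3.64, with only 0.472% of kept genes below it, and Cd47, at -0.71, was again called neither.

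The Ermap transcript ran over 0, 7.28 and 248 RPKM in 24 EPO-treated cells, against 13.7, 117 and 330 RPKM in wild-type cells. Of the EPO-treated cells 13 lay below the lowest wild-type cell and 1 was above the wild-type median. In class D the 4 EPO-treated cells had 0, 0.13, 68.2 and 84.5 RPKM, so 2 cells were near or at 0 and 2 fell within the wild-type range of 26.5 to 294 RPKM.

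Slc4a1 ran over 0, 18.8 and 141 RPKM in EPO-treated cells and differed from wild-type cells by -2.05, with -2.78 in class B, -2.62 in C and -0.76 in D. The 4 class D cells had 141, 6.98, 63.4 and 100.5 RPKM, which overlapped the wild-type range, and without the cell at 6.98 Slc4a1 was no longer called lower, at -1.75. Gypc reached detection in 7 of 24 EPO-treated cells (29.2%, 12.6% to 51.1%) and differed by -2.22. Its 4 class D cells had 3.89, 0, 31.3 and 1.41 RPKM, and 3 of these 4 cells passed detection.

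Rhag and Rhd differed by -1.80 and -2.13. Rhag was at 193 RPKM in the median EPO-treated cell, against 423 RPKM in the median wild-type cell, and 5 EPO-treated cells lay below the lowest wild-type cell. Rhd was at 307 RPKM in the median EPO-treated cell, against 961 RPKM in the median wild-type cell, and 10 of 24 cells lay below the lowest wild-type cell. Both ranges overlapped those of the wild type.

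Kel was lower in all 3 classes of EPO-treated cells, at -2.26 in B, -3.05 in C and -1.19 in D, with an average of -2.17. It reached detection in 18 of 24 EPO-treated cells (75%, 53.3% to 90.2%), against all 42 wild-type cells. Aqp1 differed by -1.52 with detection in 10 of 24 EPO-treated cells (41.7%, 22.1% to 63.4%). Car2 differed by -1.28, with 10 of 24 EPO-treated cells below the lowest wild-type cell. Its spread over EPO-treated cells was wide, with 1 class B cell at 9.93 RPKM and the highest at 12007 RPKM.

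Whether equal normalized Ter119 values stand for like signals under different name prefixes was not tested. Class B of the EPO-treated group had a median of 0.106 in the larger name prefix and 0.00146 in the smaller. Values from 0.3 to 0.6 were found in 6 EPO-treated cells (3 of class C and 3 of class D). They were also found in 13 wild-type cells (10 of class B and 3 of class C). In this range, chosen after seeing the data, 7 of the 9 members were lower in EPO-treated cells, where 70.6% of kept genes were. The member median was -1.39, against -1.73 over kept genes, with the members less far down than the kept genes as a whole. The median cell in this range had 886.5 detected genes in the EPO-treated and 2768 in the wild-type group, and the part of this gap in the differences was not tested. Slc4a1 ran over 6.98, 75.03 and 141 RPKM in the 6 EPO-treated cells, against 19.9, 59.0 and 325 RPKM in the 13 wild-type cells. It differed by -0.39 and was not called lower, while Kel (-2.56), Ermap (-2.47) and Gypc (-2.40) were.

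Between the Flvcr-deleted and EPO-treated cells, none of the 9 members was called lower or higher, where 8.86% of kept genes were lower and 7.76% were higher. The averaged differences ran over -0.44 (Slc4a1) to 0.97 (Ermap), with a median of 0.24, against -0.12 over all kept genes. Cd47 differed in sign between classes, at 1.24 in B and -1.15 in C. All ranges overlapped in every class. Ermap passed the size of 1 when any of several single cells was left out. With 1 sample a group this does not show that the groups were alike.

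The median cell of both altered groups held fewer detected genes than that of the wild type, so the members were also read in cells with 1000 to 2000 detected genes. This left 12 Flvcr-deleted cells (4 in each of B, C and D), 12 EPO-treated cells (5, 5 and 2) and 18 wild-type cells (2, 8 and 8). The range was known from an earlier account of these data. The median over all kept genes was then near 0, at -0.09 for Flvcr-deleted and -0.06 for EPO-treated against wild-type cells. The member medians were -1.95 and -2.56. In Flvcr-deleted cells 7 of 9 members were lower, where 19.1% of kept genes were, and in EPO-treated cells 7 of 9 were lower, where 14% were. No member was higher in either comparison, where 16% and 7.99% of kept genes were. The range also shifted the wild-type reference. In wild-type cells of classes B to D, Spearman correlations with detected genes were -0.56 for Slc4a1 and -0.59 for Rhd. For the others they ran from -0.26 (Ermap) to 0.09 (Aqp1). In the range the wild-type median went from 85.7 to 166 RPKM for Slc4a1 and from 961 to 1369 RPKM for Rhd. The Aqp1 median alone went down, from 4.94 to 3.61 RPKM. The part of this shift in the differences was not tested.

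In that range Ermap differed by -3.65 in Flvcr-deleted cells and -3.60 in EPO-treated cells, and Slc4a1 by -2.93 and -3.12. Slc4a1 ran over 0.747, 11.2 and 77.6 RPKM in the 12 Flvcr-deleted cells and over 0, 8.43 and 100.5 RPKM in the 12 EPO-treated cells, against 28.5, 166 and 345 RPKM in the 18 wild-type cells. Gypc was detected in 3 of 12 Flvcr-deleted cells, 3 of 12 EPO-treated cells and 18 of 18 wild-type cells. Kel was called lower in Flvcr-deleted cells in this range, at -2.02, with class D at -0.70. The members not called lower were Cd47 (-0.13 and -0.62) and Car2 (-0.89 and -0.91). Only 2 wild-type class B cells fell in the range, and over classes C and D alone 7 of 9 members were lower in either comparison, where 23.4% and 20% of kept genes were, with medians of -1.48 and -1.89 against -0.06 and -0.19 over kept genes. Globins took a median of 90.1%, 76.0% and 88.7% of the RPKM in these Flvcr-deleted, EPO-treated and wild-type cells.

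**Figure D3:**
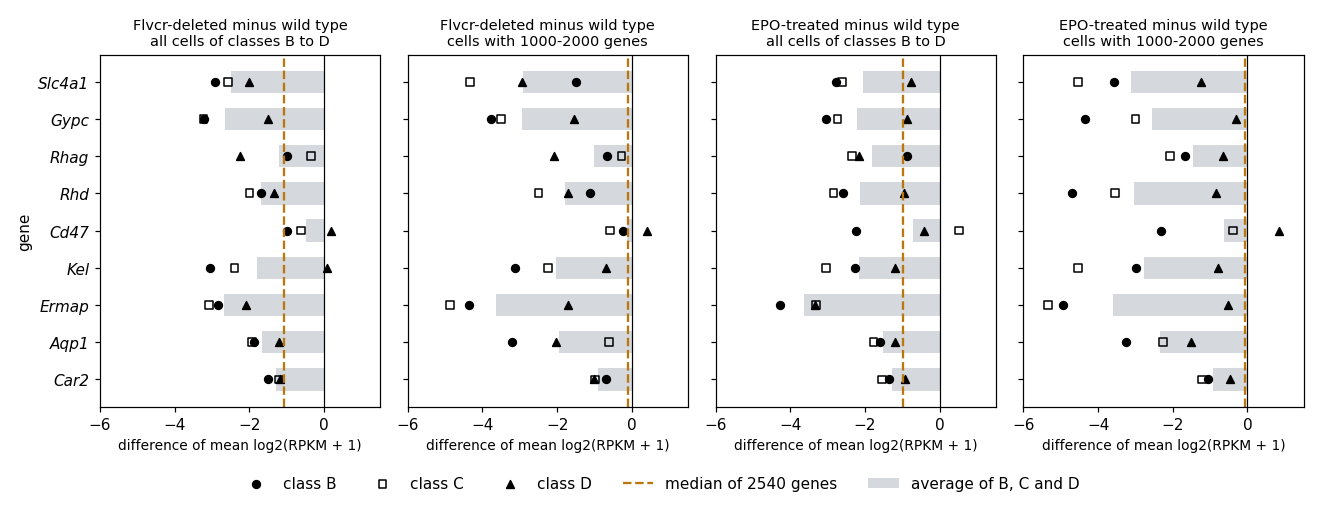
Difference of mean log2(RPKM + 1) between groups for each of the 9 genes, for all cells of classes B to D and for cells with 1000 to 2000 detected genes; bars are the average of the 3 classes, symbols are single classes, and the dashed line is the median of 2540 kept genes. The dashed line lies at -0.09 and -0.06 in the restricted cells, against -1.08 and -0.99 over all cells of these classes, while the bars of Ermap, Gypc and Slc4a1 in the restricted cells lie between -3.65 and -2.56.

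The members were also counted within each cell. The median Flvcr-deleted cell of classes B to D had 7 of the 9 detected (range 5 to 9), the median EPO-treated cell 7 (3 to 9) and the median wild-type cell 9 (8 to 9). A full set of 9 was found in 1 of 30 Flvcr-deleted cells, 2 of 24 EPO-treated cells and 24 of 42 wild-type cells. In the cells with 1000 to 2000 detected genes this was 1 of 12, 1 of 12 and 13 of 18. No like count was made for other sets of genes.

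**Figure D4:**
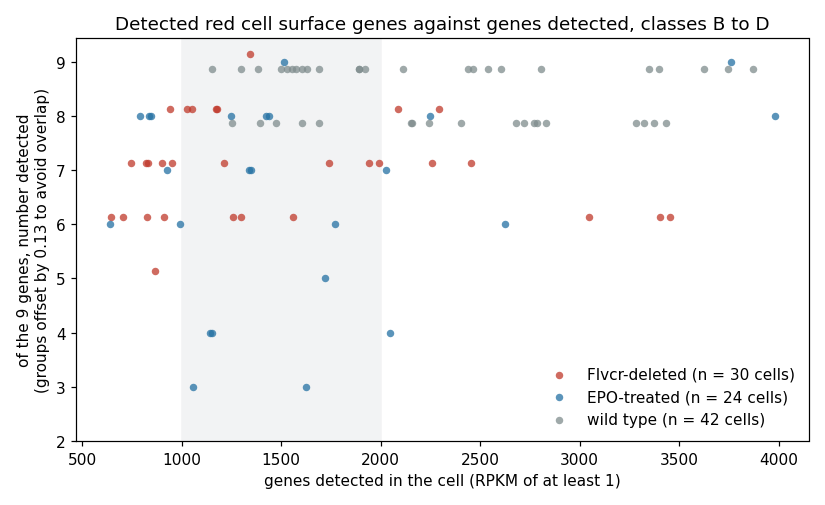
Number of the 9 genes detected in a cell (vertical axis) against all genes detected in that cell (horizontal axis) for classes B to D, with the range of 1000 to 2000 genes shaded; each point is a cell. Flvcr-deleted and EPO-treated cells reach down to 5 and 3, while all 42 wild-type cells lie at 8 or 9, also where they hold fewer than 2000 genes.

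Rhd and Rhag make partners of one complex, and their balance was read within each cell. Where both were detected, the median of Rhd minus Rhag was 0.36 on the log2 scale in Flvcr-deleted cells, 0.45 in EPO-treated cells and 1.14 in wild-type cells. Rhd was above Rhag in 18 of 29 Flvcr-deleted cells, 10 of 19 EPO-treated cells and 40 of 42 wild-type cells. The SD of this difference over cells was 2.93 in Flvcr-deleted, 2.55 in EPO-treated and 1.30 in wild-type cells. Over all cells of these classes each transcript alone also spread more widely in the altered groups. The SDs, in the same order of groups, were 2.56, 3.04 and 1.23 for Rhag and 2.19, 3.04 and 0.81 for Rhd. Other pairs of genes were not read this way. Both altered groups held cells rich in one transcript and poor in the other. The other cells had a single one of these transcripts detected, which was the case in 1 Flvcr-deleted, 5 EPO-treated and 0 wild-type cells.

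**Figure D5:**
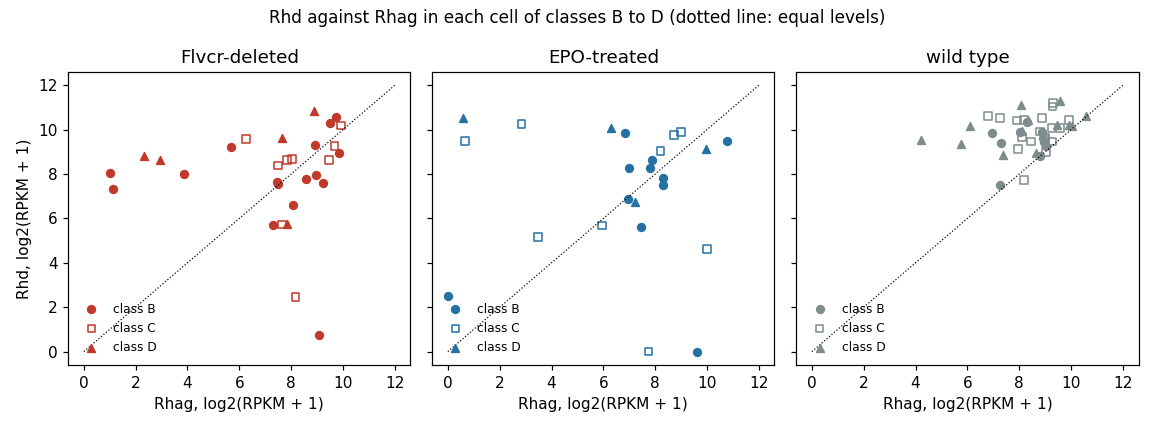
Level of Rhd (vertical axis) against Rhag (horizontal axis), both as log2(RPKM + 1), in each cell of classes B to D, with symbols for the class letter and a dotted line at equal levels. Flvcr-deleted and EPO-treated cells scatter to both sides of the line, while 40 of 42 wild-type cells lie above it.

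Levels at high and low Ter119 were set side by side as class D minus class B within a group. In Flvcr-deleted cells 4 members were higher in class D by at least 1 (Kel 2.50, Slc4a1 1.52, Rhd 1.02 and Gypc 1.01) and 1 was lower (Rhag -1.32), where 13.5% of kept genes were higher and 30.6% lower. In EPO-treated cells 4 members were higher (Slc4a1 2.63, Rhd 2.32, Cd47 1.60 and Gypc 1.47) and 1 was lower (Rhag -1.35), where 10.9% were higher and 58.3% lower. In wild-type cells none of the 9 passed this size, where 5.39% were higher and 46.1% lower, and the members ran over -0.69 (Gypc) to 0.67 (Rhd). These values rest on 5 Flvcr-deleted and 4 EPO-treated cells of class D. Without 4 Flvcr-deleted class B cells of little globin, described further on, Kel alone was higher in class D of that group, where 20% of kept genes were. Rhag in class D of the EPO-treated group had 0.5, 147, 76.5 and 982 RPKM, and without the cell at 0.5 its difference was 0.45, on the other side of 0. Gypc and Rhd in Flvcr-deleted cells ended below 1 when any of several single cells was left out.

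Spearman correlations of the members with normalized Ter119 over cells of classes B to D were low in most cases. For Slc4a1 the value was 0.34 over 30 Flvcr-deleted cells, 0.48 over the 21 EPO-treated cells of 1 name prefix and 0.26 over 42 wild-type cells, and for Rhag it was -0.06, 0.05 and 0.06. Within each group these cells share a name prefix, and the correlations are given as a description. Between pairs of members the median Spearman correlation over cells was 0.14, 0.18 and 0.15 in the 3 groups.

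In class B, 4 Flvcr-deleted cells had little globin (Hbb-b1 below 12 on the log2 scale) although they held 2455 to 3452 detected genes. Slc4a1 was at 0 in 3 of them and at a log2 level of 1.00 in the other. Gypc was at 0 in 3 and at 0.60 in the other. Rhag (7.32 to 8.94), Rhd (5.69 to 7.93), Cd47 (6.34 to 7.85), Kel (4.85 to 8.54), Ermap (4.82 to 7.38) and Car2 (9.84 to 11.48) were present in all 4. Slc4a1 and Gypc were thus detected in none of these 4 cells, and Aqp1 in 1 of them. Without the 4 cells, the same 7 members were lower in Flvcr-deleted than in wild-type cells, where 52.8% of kept genes were. The median was then -1.68 over the members and -1.22 over kept genes.

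Class A was read apart, since the marker levels of its cells differed between groups. Granulocyte and monocyte markers had a median summed level of 0 RPKM in the 18 Flvcr-deleted, 229 RPKM in the 7 EPO-treated and 1030 RPKM in the 6 wild-type class A cells. The erythroid markers summed to a median of 4820, 1407 and 334 RPKM in the same order of groups, and Alas2, the erythroid enzyme that starts heme synthesis, was at 0 in all 6 wild-type class A cells. By count, 5 of these 6 cells still held at least 3 of the 10 erythroid markers. On the granulocyte and monocyte list, 2 of the 6 cells reached at least 3 of the 12. The marker sums and counts thus leave the erythroblast label of wild-type class A unsettled. The part of these marker levels in the class A differences was not tested. Rhag was detected in 11 of 18 Flvcr-deleted, 3 of 7 EPO-treated and 1 of 6 wild-type class A cells, and Car2 in 16 of 18, 3 of 7 and 2 of 6. Cd47 was detected in 11 of 18 Flvcr-deleted cells, all 7 EPO-treated cells and all 6 wild-type cells of this class. Slc4a1 and Gypc were detected in 0 of the 6 wild-type class A cells, and the exact 95% interval of that share reaches up to 45.9%. A single wild-type class A cell held 7 of the members, with Car2 at a log2 level of 11.65.

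Against wild-type class A, 4 members were higher in Flvcr-deleted cells by at least 1 (Car2 3.83, Rhag 3.43, Rhd 1.45 and Kel 1.01) and Cd47 was lower (-3.60), where 2.76% of kept genes were higher and 63.7% lower. In EPO-treated class A cells Car2 (1.73), Rhag (1.55), Kel (1.45) and Ermap (1.07) were higher and 0 members were lower, where 7.87% of kept genes were higher and 50.3% lower. These 4 values rested on 1 of the 7 EPO-treated cells, which held Car2 at a log2 level of 9.90, Rhag at 9.69, Kel at 8.46 and Ermap at 6.66. Without it the differences were 0.73, 0.28, 0.46 and 0.28, and 0 members were higher, where 7.95% of kept genes were. In the Flvcr-deleted comparison Kel ended below 1 when any of several single cells was left out.

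The Flvcr-deleted class A labels end in a or d. The 9 cells with the suffix a had a median of 1381 detected genes and 5 of 9 members detected, while the 9 with the suffix d had 343 genes and 1 member. Cd47 was detected in 9 of 9 cells with the suffix a and 2 of 9 with the suffix d. With class A included, 3 members were called lower in Flvcr-deleted and 1 in EPO-treated cells, where 44.6% and 35.2% of kept genes were.

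Other genes of the red cell surface were followed in a list of 40 further surface, blood group and transport genes, of which 22 were kept and 18 averaged below 1 on the log2 scale and are not counted. The filter used all cells, so these counts describe the kept genes alone. In Flvcr-deleted cells 13 of the 22 were lower (59.1%, where 48.3% of all kept genes were) and 0 higher than in wild-type cells. Their median was -1.45, against -1.08 over all kept genes, so the share and the median lie near those of all kept genes. The 4 with the largest differences were Slc38a5 (-3.90), an amino acid transporter, Slc43a1 (-3.51), another amino acid transporter, Bsg (-2.96), basigin, the carrier of the Ok blood group, and Icam4 (-2.96), the Landsteiner-Wiener glycoprotein. In EPO-treated cells 11 of the 22 were lower (50%, where 42% of kept genes were), with a median of -1.18, against -0.99 over kept genes, led by Car1 (-3.01), Slc38a5 (-3.01), Slc14a1 (-2.93), the Kidd urea transporter, and Icam4 (-2.55). Between Flvcr-deleted and EPO-treated cells 3 of the 22 were lower (13.6%, where 8.86% of kept genes were). These were Bsg (-2.20), Tspan33 (-2.15) and Slc16a1 (-1.42), the monocarboxylate transporter that basigin chaperones.

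Of 11 skeleton and adaptor genes that hold these complexes, all kept, 8 were lower in Flvcr-deleted cells, where 48.3% of kept genes were, with a median of -2.68, against -1.08 over kept genes. In EPO-treated cells 6 of the 11 were lower, where 42% of kept genes were, with a median of -1.19, against -0.99, so this share and median lie near those of all kept genes. Stom, which encodes stomatin, differed by -4.32 in Flvcr-deleted and -4.10 in EPO-treated cells, and Epb4.2, which links band 3 to ankyrin, by -3.71 and -3.62. Add1, an adducin, differed by -3.23 and -2.30, and Mpp1, a partner of glycophorin C, by -3.22 and -2.79. Sptb and Add2 were lower in Flvcr-deleted than in EPO-treated cells, by -1.71 and -1.48. These make 2 of the 11 (18.2%), where 8.86% of kept genes were lower.

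The genes most like each member over the 12 combinations of group and class letter were named by the highest Pearson correlation of mean log2 levels. The 12 points share groups, name prefixes and depth, so the values are a description. For Slc4a1 they included Ccnb1 (0.96). For Gypc they were Kif22 (0.98) and Dhrs11 (0.97), and for Ermap Btnl10 (0.94) and Ift140 (0.93). Rhd and Car2 shared Prdx2 (0.98 and 0.97), joined by Isg20 (0.97) for Rhd. Kel had Urod (0.97) and Mgst3 (0.96), Rhag had Ctse (0.95) and Gm15800 (0.93), and Aqp1 had Stom (0.94) and Aurka (0.93). Cd47 had the lowest values, with Adam10 (0.87) and Eny2 (0.80).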

How the data were processed

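Single marrow cells were captured on the Fluidigm C1, and SMART-Seq cDNA went into Nextera XT libraries, which keep no strand (per the labels' protocols). The authors deposited RPKM values per RefSeq transcript. Alignment used TopHat2 2.0.9 and the mm9 build, per the submitters' processing notes. How reads were counted is not given in the sources used here. EPO-treated values were deposited with at most 2 decimals. 4 columns of no listed sample were not used.

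From the deposited RPKM the row with the highest mean was taken for each symbol and log2(RPKM + 1) was computed, with a pseudocount of 1, which understates changes of low genes. The 2540 genes averaging at least 1 were kept. Differences were averaged over classes B, C and D with equal weight and called by size (at least 1) and sign, since 1 sample a group allows no test. Exact Clopper-Pearson 95% intervals give counting error. Named genes are the 9 members, the 2 genes most like each over 12 combinations of group and class, and the 4 largest differences of each list in each contrast. The members and lists were chosen with earlier results of these data known. Genes and cells named for a single call, and the genes named beyond that rule, were chosen after their values were seen. Cell type markers were counted per group and class: erythroid, granulocyte and monocyte, macrophage, megakaryocyte and platelet, B cell, T and NK cell, progenitor, and endothelial and stromal. In classes B to D no cell had 3 detected markers of any list but the erythroid one. Reads per cell were estimated from the smallest RPKM steps with GENCODE transcript lengths of another build and are approximate. The computation of differences was tested on simulated data. Python 3.11.15, numpy 2.4.6, pandas 2.3.3, scipy 1.17.1 and matplotlib 3.10.9 were used. Some of the genes most like a member are not reported here.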

Additional observations from a re-analysis of the deposited data

How the results depend on the processing

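Members called lower in Flvcr-deleted against wild-type cells numbered 7, and 4 with a pseudocount of 10 and 3 over all 4 class letters. The shares of kept genes lower were 48.3%, 18.5% and 44.6% in the same order. In EPO-treated against wild-type cells 8 members were lower, and 5 with the log2 ratio of mean RPKM and 1 over all 4 letters. The shares of kept genes there were 42%, 27.4% and 35.2%. Between Flvcr-deleted and EPO-treated cells 1 member was higher with a pseudocount of 0.1, and with every cell scaled to 1 sum without globins. The same held without class C, and in cells with 1000 to 2000 detected genes without class B. Of kept genes 10.3%, 8.66%, 9.17% and 20.9% were higher in these settings. With every cell scaled to 1 sum 1 member was lower, where 12.7% of kept genes were. In cells of normalized Ter119 from 0.3 to 0.6, 1 member was lower and 1 higher, where 13.2% and 33.0% of kept genes were. Scaling to 1 sum called 9 members lower in Flvcr-deleted against wild-type cells, with a median of -2.45. Without globins the scaling called 5, with a median of -1.44. Of kept genes 59.3% were lower with scaling to 1 sum, with a median of -1.32, and 41.9% without globins, with a median of -0.91. For class D minus class B in Flvcr-deleted cells, against 4 higher and 1 lower, the higher count was 1 with a pseudocount of 10 and without cells of low Hbb-b1, and 2 with scaling to 1 sum, the ratio of means, and classes C and D together, and the lower count was 0 with scaling without globins, the ratio of means and C and D together. In EPO-treated cells the lower count was 0 with a pseudocount of 10, scaling without globins, the ratio of means, 1000 to 2000 genes and without the name prefix SCP6, and 3 with scaling to 1 sum, and the higher count was 1 with that scaling, 7 without globins and 2 with C and D together. In wild-type cells, against 0, the lower count was 4 with scaling to 1 sum and 2 with 1000 to 2000 genes. The higher count there was 1 with scaling without globins, the ratio of means, medians and 1000 to 2000 genes. With scaling to 1 sum, 39.4% of kept genes were lower in class D in Flvcr-deleted, 71.1% in EPO-treated and 62.6% in wild-type cells. Without globins these shares were 22.2%, 48.9% and 37.7%. Rhd in Flvcr-deleted cells turned to -0.0035 with 1000 to 2000 genes, Rhag in Flvcr-deleted cells to 0.20 with C and D together, and Rhag in EPO-treated cells to 1.14 with 1000 to 2000 genes. The cause was not tested. Leaving out each cell in turn gave 0 to 1 members higher between Flvcr-deleted and EPO-treated cells. For class D minus class B it gave 0 to 1 lower and, as the lowest, 2 higher in Flvcr-deleted cells, 0 lower at the lowest and 7 higher at the highest in EPO-treated cells, and up to 1 higher in wild-type cells. The median detection share in EPO-treated cells was 91.7% with any RPKM above 0 counted. Leaving out cells, detection thresholds of above 0 and of 5, the range without class B and the Ter119 range were chosen after seeing the data. No paired analysis was possible because each group is 1 sample and no test was made. Low detection of Aqp1 and Gypc, few class D cells, and the unknown depth of EPO-treated cells limit what the values can show.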
